A study of Rattus norvegicus with 28 samples.

Results

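Lect2, Defb1, Selenbp1, Pkdcc, Ddit4l and Ceacam4 are 6 rat genes that were chosen by their array ratios at the upper doses of 2 chlorinated furans, TCDF 10 nM and PeCDF 2 nM, where their RNA was higher than in DMSO-treated primary hepatocytes. They were taken by symbol, or by an older name of the same gene, from the array annotation. This gave 7 probes for 6 of the 34817 genes tested. Of those 34817 entries, 15201 carried a gene symbol and the rest stood under their array names. Shares and ranks over all genes count both kinds. Lect2 and Pkdcc carried only locus names on the array, and both Ceacam4 probes carried the older name Ceacam10. The Selenbp1 probe is described there as selenium binding protein 2, so signal of that close copy cannot be told apart from Selenbp1 on it. All 7 probes were well above background on 28 of 28 arrays in both channels and none was saturated, so no gene was kept only through a group in which it was high.

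The hepatocytes of 2 female Sprague-Dawley rats (adults, named A and B) grew on Matrigel with insulin, transferrin, selenium and 0.1 uM dexamethasone, which all groups and the DMSO cells share. After 48 h they received, for 24 h, TCDD (a tetrachlorinated dioxin) at 0.01 or 1 nM, TCDF (a tetrachlorinated furan) at 0.1 or 10 nM, PeCDF (a pentachlorinated furan) at 0.02 or 2 nM, or no addition, against 0.1% DMSO. Each of these 7 groups was hybridised on 4 Agilent 2-colour arrays, 2 rats in 2 dye orientations, called plus and minus here, with DMSO RNA of the same rat in the other channel; RNA of 3 dishes was pooled. A ratio below is log2 of the named group over DMSO, positive when the named group was higher, and the 2 orientations of a rat were averaged, so n = 2 rats per group. Errors are standard errors (SE) of the limma fit over 14 such ratios, and a gene was called at an adjusted p under 0.05 over all genes tested. With 2 rats, the spread between replicates is that of 2 preparations of cells.

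The scans of untreated and TCDD arrays were read in another session than those of the furan arrays. Session and compound therefore cannot be told apart, and doses differ between compounds. In each session the plus arrays were read on another day than the minus arrays, so dye orientation and reading day cannot be told apart. Between 72% and 100% of probes were well above background per array and channel. The array of TCDF 10 nM, rat A, minus, was brighter than the rest, with a median log2 brightness of 7.82. The others lay between 6.44 and 6.75. The mean TCDF 10 nM ratios of the 6 genes are given with and without that array. Other results that use TCDF 10 nM include it. All 12 hepatocyte markers were detected, at a median DMSO intensity of 43400; the median was 718 for 12 Kupffer cell and leukocyte markers, 503 for stellate, 150 for cholangiocyte, 87.4 for endothelial and 73.1 for neutrophil markers. Single hepatocyte markers ran from 129 to 66900. In the DMSO channel of every array, 12 of 12 Kupffer cell and leukocyte markers were well above background. So were 9 of 9 stellate, 9 of 10 cholangiocyte, 5 of 7 endothelial and 4 of 9 neutrophil markers. The labelled cell type therefore had its defining markers, and Kupffer cell and leukocyte markers were also measured. The low endothelial and neutrophil medians are not read as RNA of those cells. In bulk RNA, fewer cells of a type and less RNA per cell cannot be told apart.

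Dioxins and furans of this kind bind the aryl hydrocarbon receptor (AHR), which moves to the nucleus, pairs with ARNT and binds DNA at a short core element, GCGTG, near genes such as Cyp1a1 and Cyp1b1. The 6 genes have unrelated products. Lect2 encodes a factor secreted by hepatocytes, Defb1 a secreted antimicrobial peptide of epithelia, and Pkdcc a tyrosine kinase of the secretory pathway. Selenbp1 encodes a methanethiol oxidase, Ddit4l an inhibitor of mTORC1 signalling, and Ceacam4 a member of the carcinoembryonic antigen family of surface proteins.

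RefSeq promoter windows, 250 bases before to 50 bases after the gene start, were at hand for 4 of the 6 genes: Lect2, Pkdcc, Ddit4l and Ceacam4. The windows of Ddit4l and Lect2 are shown because both genes rose at TCDD 1 nM while one window holds the AHR core and the other does not. They lie on the plus strand of GRCr8 at chr2:228801457-228801756 (Ddit4l) and chr17:8049784-8050083 (Lect2), and capitals mark the core.
Ddit4l: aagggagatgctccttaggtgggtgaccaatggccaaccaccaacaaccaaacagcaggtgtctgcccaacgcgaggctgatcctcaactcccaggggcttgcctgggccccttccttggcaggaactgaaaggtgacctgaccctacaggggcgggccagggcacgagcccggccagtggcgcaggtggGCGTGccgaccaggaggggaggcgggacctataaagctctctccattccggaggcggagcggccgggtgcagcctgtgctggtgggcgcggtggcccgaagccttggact
Lect2: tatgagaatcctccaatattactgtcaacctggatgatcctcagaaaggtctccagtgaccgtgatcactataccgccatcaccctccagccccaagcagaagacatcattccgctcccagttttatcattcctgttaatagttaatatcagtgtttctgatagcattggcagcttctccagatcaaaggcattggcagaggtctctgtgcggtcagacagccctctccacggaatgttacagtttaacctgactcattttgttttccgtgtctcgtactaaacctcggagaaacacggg
The core GCGTG, searched on both strands, starts 60 bases before the gene start in Ddit4l and is not in the windows of Lect2, Pkdcc or Ceacam4. It is in 29.7% of 33469 RefSeq windows of this length. The longer form TNGCGTG, which contains the core, is in none of the 4 windows and in 4.89% of all. The Ceacam4 window holds CACGTG, found in 6.42% of all windows, and TGACNNNGC, found in 12.1%. A TATAAA starts 31 bases before the start in Ddit4l and is in 14.2% of all windows. A match describes letters in the window and is not a measured site.

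TCDD 1 nM was not among the treatments that chose the genes, and all 6 rose with it: 6 of 6 were called higher and 0 lower, beside 4.66% of all genes tested called higher and 5.94% called lower. Their log2 ratios ran between 0.99 and 1.47 with a median of 1.16, while the median of all genes was 0, and they stood between the 17th and 37th highest log2 ratio of 34815 genes. Nothing in the labels says whether one DMSO preparation of a rat served all its arrays, so this comparison may share control RNA with those that chose the genes. The per-array plot shows each value in every group.

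**Figure D1:**
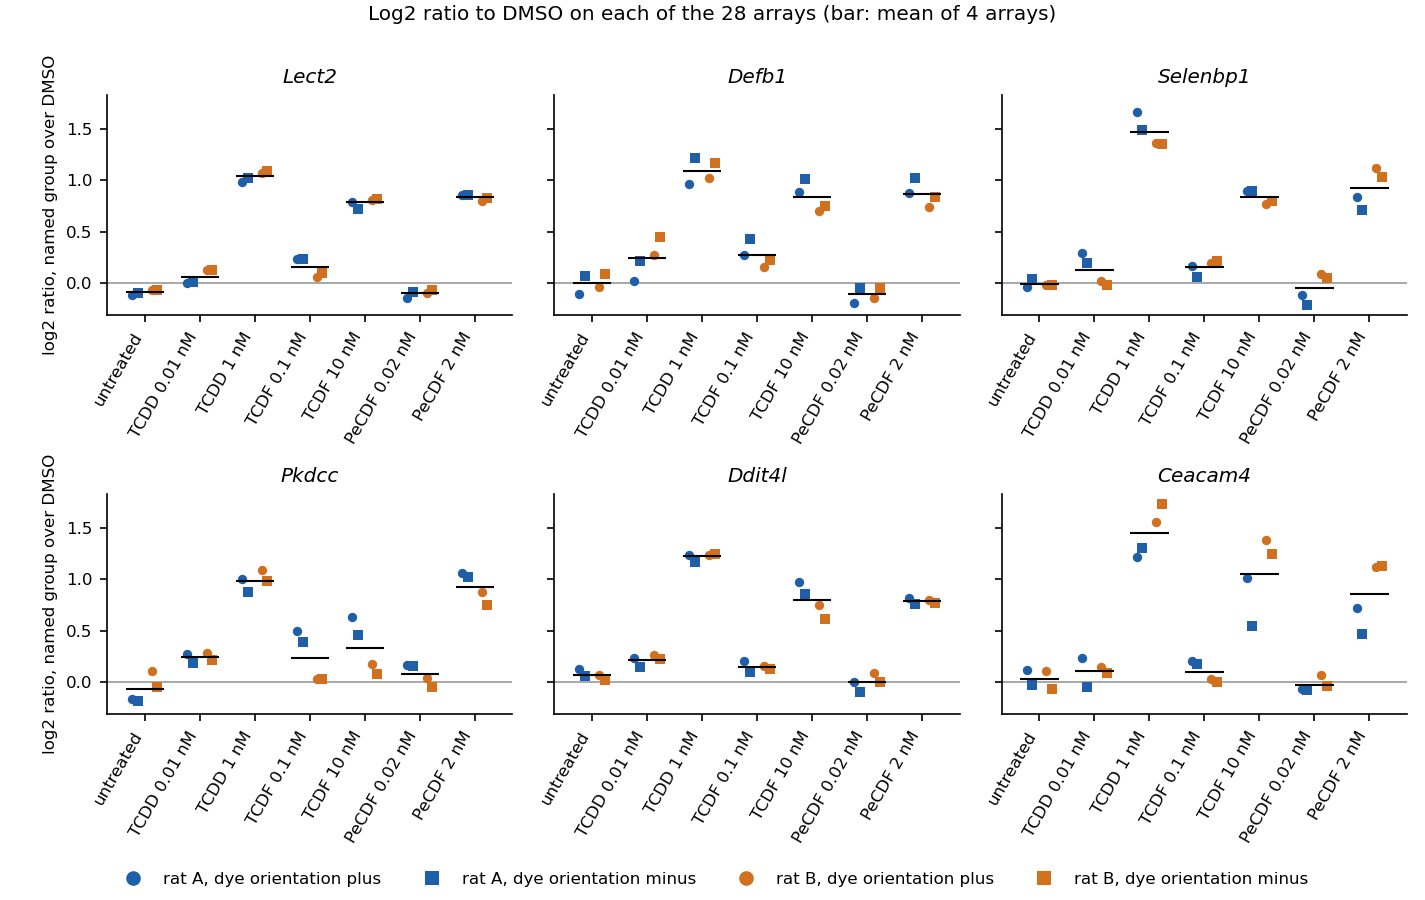
Log2 ratio to DMSO (vertical axis) on each array for the 6 genes, by group (horizontal axis); colour marks the rat, shape the dye orientation and the bar the mean of 4 arrays. All 4 arrays of TCDD 1 nM lie at 0.88 or above for every gene, while untreated arrays lie between -0.18 and 0.13.

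Among the secreted products, Lect2 had log2 ratios of 0.98 and 1.02 in rat A and 1.07 and 1.09 in rat B on the 4 arrays of TCDD 1 nM (plus and then minus orientation). These 4 lie close together, above all 4 arrays of every other group. Lect2 was 2.05-fold higher (log2 1.04 ± 0.05 SE, n = 2 rats, limma adjusted p = 1.82e-06). On those arrays its intensity was 12400 to 16200 with TCDD 1 nM, against 6300 to 7710 in DMSO.

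Defb1 had 0.96 and 1.22 in rat A and 1.02 and 1.17 in rat B with TCDD 1 nM, so the orientations differed more than the rats did. It was 2.13-fold higher (1.09 ± 0.07, n = 2 rats, limma adjusted p = 1.13e-05). Its DMSO intensity did not overlap between the rats: rat B ran between 5630 and 7270 over 14 arrays, against 3370 to 4940 in rat A. The ratio was nonetheless alike, 1.10 in rat B and 1.09 in rat A.

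Pkdcc had 1.00 and 0.88 in rat A and 1.09 and 0.98 in rat B, at intensities of 344 to 489 with TCDD 1 nM, against 174 to 233 in DMSO. It was 1.98-fold higher (0.99 ± 0.11, n = 2 rats, limma adjusted p = 0.000373). Without background correction its ratio was 0.55, still called.

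Of the gene products kept in or on the cell, Selenbp1 had 1.66 and 1.49 in rat A and 1.36 and 1.35 in rat B with TCDD 1 nM. Both arrays of rat A lay above both of rat B. Selenbp1 was 2.76-fold higher (1.47 ± 0.09, n = 2 rats, limma adjusted p = 7.66e-06). Ddit4l had 1.24 and 1.17 in rat A and 1.24 and 1.25 in rat B and was 2.34-fold higher (1.23 ± 0.05, n = 2 rats, limma adjusted p = 9.47e-07). Its rats and orientations hardly differed, while its ratio ran between 0.83 and 1.36 over the alternative ways of processing and fitting.

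Ceacam4 had 1.22 and 1.30 in rat A and 1.56 and 1.73 in rat B, and was 2.74-fold higher with TCDD 1 nM (1.45 ± 0.14, n = 2 rats, limma adjusted p = 0.000143). Its second probe had 1.42 and 1.62 in rat A and 1.54 and 2.07 in rat B, a 3.16-fold increase (1.66 ± 0.15, n = 2 rats, limma adjusted p = 0.000132 with every probe tested on its own). Both probes thus rose on 4 of 4 arrays. The gene was dim, at a median DMSO intensity of 130 on the brighter probe, and the size of its ratio followed the background step: 0.71 without correction and 1.83 with the scanner's own ratio, called in both.

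**Figure D2:**
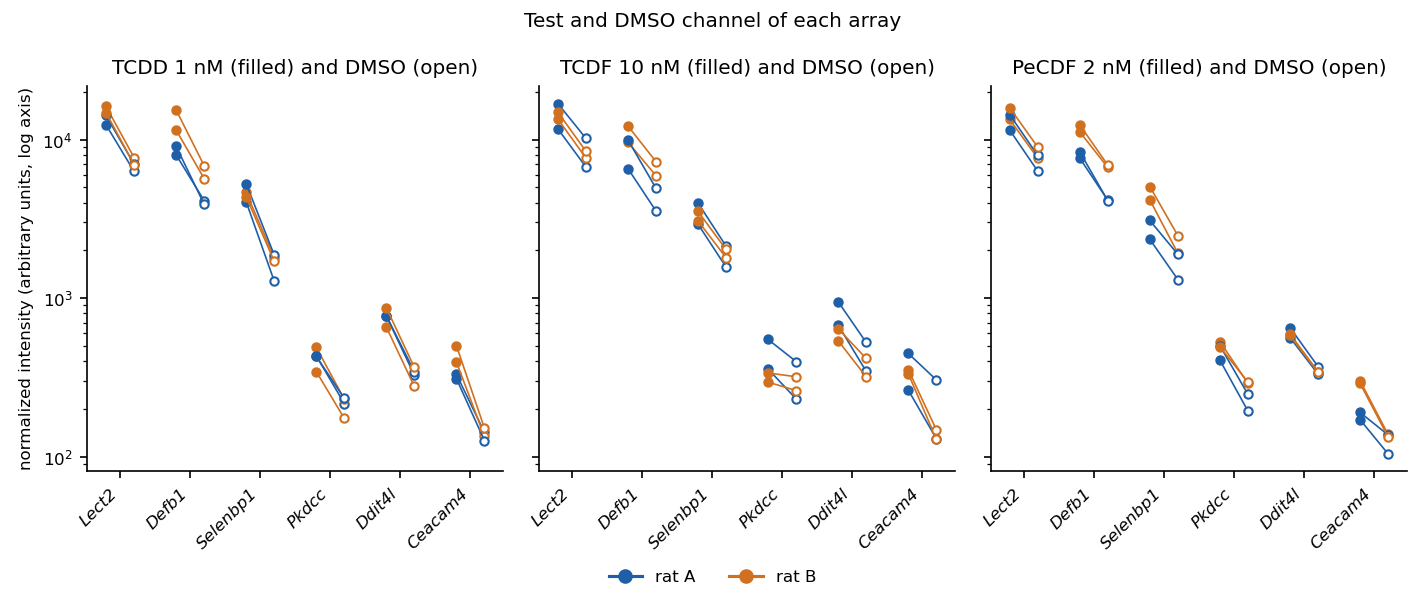
Normalized intensity (log axis, arbitrary units) of the treated channel (filled) and the DMSO channel (open) on each array, joined by a line, for the 6 genes at the upper dose of each compound; colour marks the rat. Every line at TCDD 1 nM falls towards DMSO, and the brighter TCDF 10 nM array of rat A has the highest open points for Pkdcc, Ddit4l and Ceacam4.

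The step between the TCDD doses is the difference of 2 ratios to DMSO, since no array held RNA of both doses. All 6 genes were higher at 1 nM than at 0.01 nM by the test of that difference, beside 1.39% of all genes called higher, with a median log2 difference of 0.98 and a range of 0.74 to 1.34. Ddit4l differed by 1.00 ± 0.07 and Lect2 by 0.97 ± 0.06 (n = 2 rats per dose, limma adjusted p = 7.99e-05 for each). Selenbp1 differed by 1.34 ± 0.12 (adjusted p = 0.000343), Defb1 by 0.85 ± 0.10 (adjusted p = 0.00126) and Ceacam4 by 1.34 ± 0.20 (adjusted p = 0.00488), all from limma with n = 2 rats per dose.

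Pkdcc had the smallest step, 0.74 ± 0.16 (n = 2 rats per dose, limma adjusted p = 0.028). This call was lost with the scanner's own ratios and with the deposited series values (0.85, limma adjusted p = 0.0718 in both). It was also lost without rat A or rat B of TCDD 0.01 nM (limma adjusted p = 0.161 and 0.0924) and without rat B of TCDD 1 nM (limma adjusted p = 0.135). In each of these fits the difference kept its direction.

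**Figure D3:**
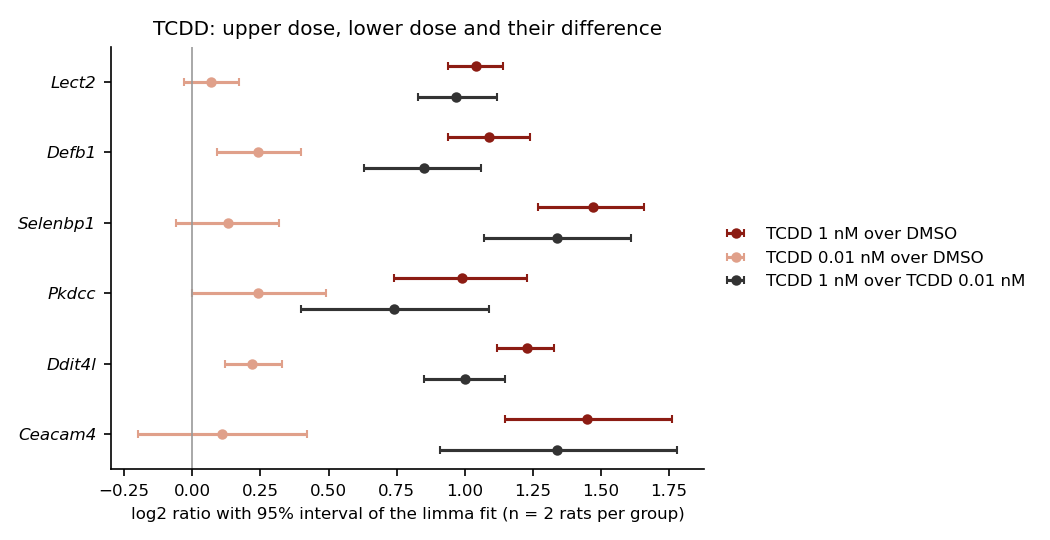
Log2 ratios (horizontal axis) with 95% intervals of the limma fit for each gene: TCDD 1 nM over DMSO, TCDD 0.01 nM over DMSO, and TCDD 1 nM over TCDD 0.01 nM, n = 2 rats per group. The intervals of the dose step lie above 0 for all 6 genes, with Pkdcc nearest to 0 at 0.40 to 1.09.

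At the lower doses and without treatment no gene of the 6 was called by limma. With TCDD 0.01 nM the count was 0 of 6, beside 0.451% of all genes called in either direction; 2 of 6 had an unadjusted p under 0.05, as did 10.5% of all genes. Those were Ddit4l, with 0.24 and 0.15 in rat A and 0.27 and 0.23 in rat B (0.22 ± 0.05, n = 2 rats, limma adjusted p = 0.104), and Defb1, with 0.02 and 0.22 in rat A and 0.28 and 0.45 in rat B (0.24 ± 0.07, n = 2 rats, limma adjusted p = 0.215). All 4 arrays of both genes lay above 0. Pkdcc stood at the same height, 0.24 ± 0.11, with 4 arrays between 0.19 and 0.29. Lect2, Selenbp1 and Ceacam4 averaged 0.07, 0.13 and 0.11, and for Lect2 rat A was at 0 while rat B was at 0.13.

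With TCDF 0.1 nM the count was again 0 of 6, beside 0.00287% of all genes, and 3 of 6 had an unadjusted p under 0.05, as did 7.62% of all genes. Defb1 averaged 0.28 ± 0.07, Lect2 0.16 ± 0.05 and Ddit4l 0.15 ± 0.05 (n = 2 rats, limma adjusted p = 0.334, 0.392 and 0.463). Each was above 0 on 4 of 4 arrays. Fits to single arrays with a dye or reading-day term called these 3, and called Ddit4l and Defb1 at TCDD 0.01 nM. The share of all genes called by those fits is not given here, so these calls are not read as particular to the 6 genes. Reading day went with dye orientation, so these fits are not separate checks.

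With PeCDF 0.02 nM the count was 0 of 6 where 0% of all genes were called; none of the 6 had an unadjusted p under 0.05, beside 7.62% of all genes, and the ratios ran between -0.10 for Defb1 and 0.08 for Pkdcc. Untreated cells gave 0 of 6, beside 0.0431% of all genes, and again none at an unadjusted p under 0.05, beside 10.7% of all genes, with ratios between -0.08 for Lect2 and 0.07 for Ddit4l. Lect2 was slightly below DMSO on 4 of 4 arrays in both groups, -0.14 to -0.06 with PeCDF 0.02 nM and -0.11 to -0.06 in untreated cells.

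The upper furan doses chose the genes, so their values are a description. With TCDF 10 nM the ratios were 1.05 ± 0.14 for Ceacam4, 0.84 ± 0.07 for Defb1, 0.84 ± 0.09 for Selenbp1, 0.80 ± 0.05 for Ddit4l, 0.79 ± 0.05 for Lect2 and 0.34 ± 0.11 for Pkdcc (n = 2 rats). Without the brighter array they were 1.16, 0.81, 0.84, 0.83, 0.80 and 0.38 in that order. With PeCDF 2 nM they were 0.93 ± 0.11 for Pkdcc, 0.92 ± 0.09 for Selenbp1, 0.87 ± 0.07 for Defb1, 0.86 ± 0.14 for Ceacam4, 0.84 ± 0.05 for Lect2 and 0.79 ± 0.05 for Ddit4l (n = 2 rats). Pkdcc thus had a lower ratio than the other 5 with TCDF 10 nM, while with PeCDF 2 nM the 6 ratios lay close together. Without background correction the PeCDF 2 nM ratio was 0.55 for Pkdcc, 0.52 for Ddit4l and 0.37 for Ceacam4. The TCDF 10 nM ratio was then 0.75 for Selenbp1, 0.55 for Ddit4l and 0.56 for Ceacam4. With the scanner's own ratio Ceacam4 had 1.54 at TCDF 10 nM.

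The rats differed for Pkdcc under both TCDF doses. With TCDF 10 nM rat A had 0.63 and 0.46 and rat B 0.18 and 0.08; with TCDF 0.1 nM rat A had 0.50 and 0.39 and rat B 0.03 and 0.03. Both arrays of rat A lay above both of rat B at each dose, and the step between the doses was 0.10 ± 0.16 over both rats. With PeCDF 2 nM rat A had 1.06 and 1.02 and rat B 0.88 and 0.75, the same order with a smaller gap. With TCDD 1 nM the order was the other way, 0.94 in rat A and 1.04 in rat B.

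For Ceacam4 rat B lay above rat A at all 3 upper doses. Rat B had 1.12 and 1.13 with PeCDF 2 nM, against 0.72 and 0.47 in rat A, and 1.38 and 1.25 with TCDF 10 nM, against 1.01 and 0.55 in rat A, the last on the brighter array. At the upper furan doses the second probe ran the same way, 1.18 and 1.34 in rat B against 0.70 and 0.76 in rat A with PeCDF 2 nM, and 1.53 and 1.68 in rat B against 1.16 and 0.68 in rat A with TCDF 10 nM; with TCDD 1 nM its arrays overlapped between the rats. Selenbp1 kept no such order: rat B was higher with PeCDF 2 nM, 1.12 and 1.03 against 0.84 and 0.71 in rat A, and lower with TCDD 1 nM. With a single preparation of cells from each rat, a difference between the rats has no test.

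Ordered by level, TCDD 1 nM came first for all 6 genes, the other upper doses next and the lower doses and untreated cells last, save that PeCDF 2 nM and TCDF 10 nM changed places between genes. For Lect2 the rats' ratios were 1.00 and 1.08 with TCDD 1 nM, 0.86 and 0.81 with PeCDF 2 nM, and 0.76 and 0.81 with TCDF 10 nM, the last 2 groups meeting at 0.81. For Ddit4l they were 1.21 and 1.25, then 0.91 and 0.69 with TCDF 10 nM and 0.79 and 0.78 with PeCDF 2 nM, which overlap. For Pkdcc, PeCDF 2 nM at 1.04 and 0.81 overlapped TCDD 1 nM at 0.94 and 1.04. The doses and the reading sessions differ between compounds, so these levels stand side by side and were not compared.

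Over the 14 ratios, Pearson correlations between pairs of the 6 genes ran between 0.72 (Pkdcc and Ceacam4) and 0.98, with a median of 0.93 over 15 pairs. The ratios at TCDF 10 nM and PeCDF 2 nM, which chose the genes, are part of this; over the 10 ratios of the other 5 groups the pairs ran between 0.90 and 0.99 with a median of 0.96. The ratios share rats, may share DMSO RNA, and hold the contrast of upper and lower doses, so a high value is common to any gene raised by the upper doses. Among 14851 other named genes with all values, those most like each member were drawn by the same measure over all 14 ratios. Cyp1b1, a P450 enzyme induced through the AHR, was among the 3 nearest to Lect2 (0.967), Ddit4l (0.968) and Selenbp1 (0.963). Its ratios were 3.93, 2.07 and 2.78 with TCDD 1 nM, TCDF 10 nM and PeCDF 2 nM.

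Zc2hc1a, which encodes a zinc finger protein, was the nearest to Ddit4l (0.972) and the second nearest to Lect2 (0.959), followed for Lect2 by Klrb1a (0.954) and accompanied for Ddit4l by Tmem50b (0.971). Selenbp1 was most like Birc3, an inhibitor of apoptosis (0.971), and Srsf9, a splicing factor (0.968). Defb1 was most like Hsd17b2, a steroid dehydrogenase (0.960), Txnrd1, a thioredoxin reductase (0.952), and the kinase gene Riok3 (0.949). Ceacam4 was most like Rragd, a GTPase that acts on mTORC1 (0.968), Aldh3a1, an aldehyde dehydrogenase of the AHR battery (0.966), and Shtn1 (0.958). Pkdcc had the lowest first value of the 6, with Serpine2, a protease inhibitor, at 0.949, then Aldh18a1 (0.919) and Dyrk2 (0.915). Correlation does not measure the size of a change, and the sizes differed widely. In the order TCDD 1 nM, TCDF 10 nM and PeCDF 2 nM, Srsf9 had 0.17, 0.08 and 0.09 and Aldh3a1 2.28, 1.15 and 1.2. In that order Rragd had 0.27, 0.14 and 0.06, and Dyrk2 0.19, 0.04 and 0.15. The ratios of Serpine2 were 0.65 with TCDD 1 nM, 0.20 with TCDF 10 nM and 0.48 with PeCDF 2 nM. They are among the ratios by which it was picked, so their likeness to Pkdcc is no separate result.

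Among genes of related function the AHR battery is the known set of targets of these compounds. Of that battery, 10 of 10 tested were higher with TCDD 1 nM, among them Cyp1b1 (15.2-fold, 3.93 ± 0.15, limma adjusted p = 8.9e-07) and the stress regulator Nfe2l2 (2.39-fold, 1.25 ± 0.09, limma adjusted p = 3.19e-05, n = 2 rats). Cyp1a1 and Cyp1a2 were also called but saturated on 4 and 3 of 4 arrays in the TCDD channel, so no fold is given. The battery is the only one of the 9 lists whose tested genes were all called higher, where 4.66% of all genes were.

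Lect2 is a secreted liver factor. Of 16 other hepatokines and secreted liver factors tested, 2 were higher and 6 lower with TCDD 1 nM (median -0.18). Over all genes tested, 4.66% were called higher and 5.94% lower. Angptl4, an inhibitor of lipoprotein lipase, had -1.46 ± 0.09 and Fgf21, a fasting hormone, -0.89 ± 0.06, while Gdf15, a stress cytokine, had 0.89 ± 0.07 (n = 2 rats, limma adjusted p = 7.82e-06, 2.17e-05 and 4.32e-05). LECT2 has been tied to WNT signalling in liver, but a part of that pathway in the Lect2 result was not tested. Of 13 WNT-responsive liver genes 0 were higher and 1 lower, near the shares over all genes. The lower gene was Oat, an ornithine aminotransferase, with -0.33 ± 0.06 (n = 2 rats, limma adjusted p = 0.00771). Glul, the glutamine synthetase, had 0.00 ± 0.04.

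Defb1 stood beside 15 tested antimicrobial genes, of which 1 was higher and 3 lower with TCDD 1 nM (median -0.08). This count and that of the Kupffer cell markers below stand beside 4.66% of all genes called higher and 5.94% lower. Slpi, a protease inhibitor of secretions, had 0.80 ± 0.06, Lyz2, the lysozyme, -0.60 ± 0.08, and Pglyrp1, a peptidoglycan binding protein, -0.43 ± 0.06 (n = 2 rats, limma adjusted p = 3.07e-05, 0.00113 and 0.00148). Lyz2 is also a macrophage gene. Of the 12 Kupffer cell and leukocyte markers 0 were higher and 5 lower, Vsig4 with -0.48 ± 0.09 among them (n = 2 rats, limma adjusted p = 0.00604), and all 12 lay below 0. The part of these cells in the result for Lyz2 was not tested.

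Selenbp1 makes hydrogen sulfide from methanethiol, and genes of sulfur amino acid and sulfide metabolism were more often lower: 9 of 15 were called lower and 1 higher with TCDD 1 nM (median -0.42). This count and that of selenium handling below stand beside 4.66% of all genes called higher and 5.94% lower. Cdo1, the cysteine dioxygenase, had -1.50 ± 0.16, Ethe1, which oxidises sulfide-derived persulfide, -0.66 ± 0.08, Cbs, which forms cystathionine, -0.65 ± 0.05, and Csad, which forms hypotaurine, -0.60 ± 0.06 (n = 2 rats, limma adjusted p = 0.000283, 0.00045, 3.71e-05 and 0.000199). The one higher gene was Ahcy, which hydrolyses S-adenosylhomocysteine, with 0.63 and saturated on 1 array; it was named after its value was seen. Of 14 genes of selenium handling 5 were lower and 1 higher: Txnrd1 had 0.77 ± 0.06, and Scly, which frees selenium from selenocysteine, -0.68 ± 0.08 (n = 2 rats, limma adjusted p = 3.22e-05 and 0.000585).

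The lists grouped with Pkdcc, Ddit4l and Ceacam4 are read against 4.66% of all genes called higher and 5.94% called lower with TCDD 1 nM. Of 9 other secretory pathway kinases 0 were higher and 1 lower with TCDD 1 nM, Fam20a, with -0.45 ± 0.08 (n = 2 rats, limma adjusted p = 0.00386). Of 19 mTORC1 regulators 2 were higher and 2 lower: Trib3, a pseudokinase of the stress response, had 0.42 ± 0.09 and Rragd 0.27 ± 0.05, against -1.09 ± 0.12 for Sesn1, a stress-induced inhibitor of mTORC1, and -0.17 ± 0.05 for Nprl2 (n = 2 rats, limma adjusted p = 0.0164, 0.00618, 0.000299 and 0.0473). Of 10 genes of the carcinoembryonic antigen family and related adhesion molecules limma called 0 in either direction, with Ceacam1 at -0.06 ± 0.08 and Cdh1 at -0.13 ± 0.06.

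**Figure D4:**
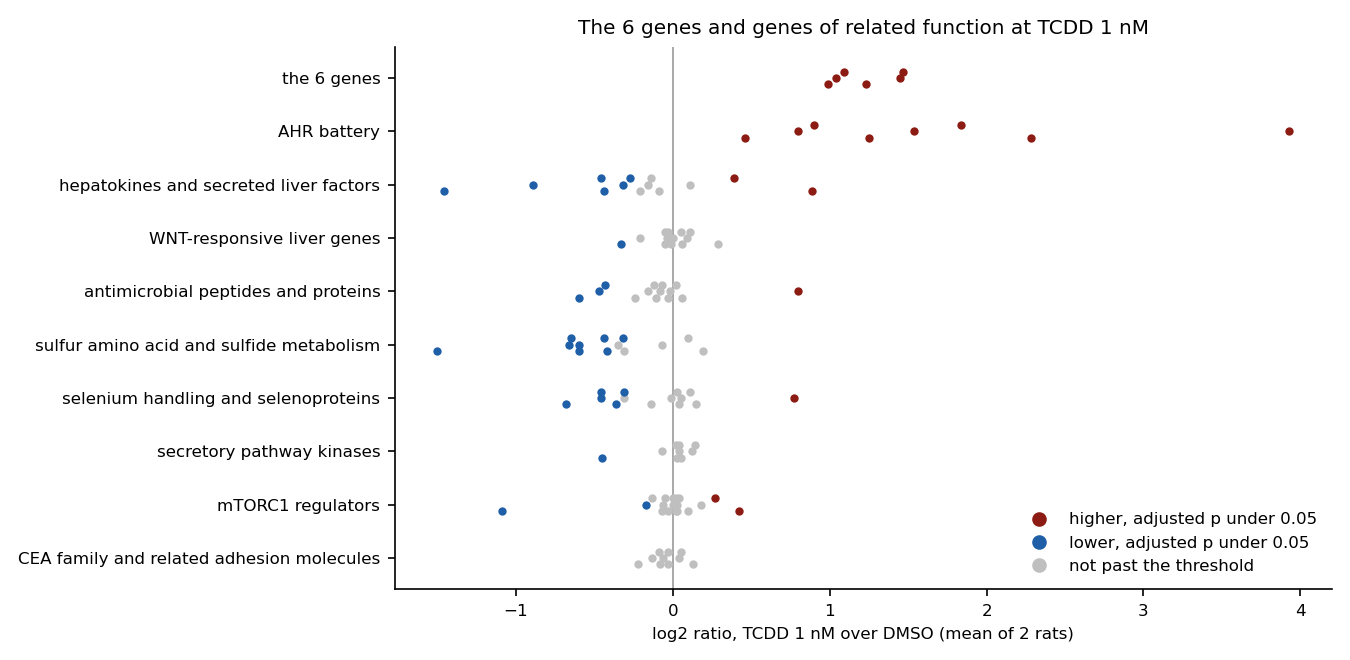
Log2 ratio of TCDD 1 nM over DMSO (horizontal axis, mean of 2 rats) for the 6 genes and for each tested gene of 9 lists of related function (rows); genes saturated on any TCDD 1 nM array are left out. Red and blue points were called higher and lower, grey points were not called; the AHR battery lies to the right of 0, while the sulfur list lies mostly to the left.

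At the upper furan doses the calls in the related lists differed from list to list, where 1.11% of all genes were called higher and 1.26% lower with TCDF 10 nM, and 1.74% higher and 2.7% lower with PeCDF 2 nM. In the antimicrobial list 1 gene was higher and 3 lower of 15 with TCDF 10 nM, the same counts as with TCDD 1 nM, and 1 higher and 1 lower with PeCDF 2 nM. In the WNT list 1 of 13 genes was lower with TCDF 10 nM, Oat (-0.28 ± 0.06, n = 2 rats, limma adjusted p = 0.0483). With PeCDF 2 nM 1 was higher, Glul (0.15 ± 0.04, n = 2 rats, limma adjusted p = 0.0487). The carcinoembryonic antigen list held 0 calls of 10 by limma at both doses. In the sulfur list 1 gene was higher and 1 lower of 15 with TCDF 10 nM, and 1 higher and 2 lower with PeCDF 2 nM. Slpi had 0.34 ± 0.06 with TCDF 10 nM and 0.29 ± 0.06 with PeCDF 2 nM (n = 2 rats, limma adjusted p = 0.0163 and 0.0243). Of the mTORC1 list limma called 0 of 19 with TCDF 10 nM, where Sesn1 had -0.42 ± 0.12 (n = 2 rats, limma adjusted p = 0.116). With PeCDF 2 nM 1 was higher and 1 lower, Nprl2, with -0.39 ± 0.05 (n = 2 rats, limma adjusted p = 0.0025). The AHR battery had 7 of 10 higher with TCDF 10 nM and 8 with PeCDF 2 nM. The hepatokine list had 1 higher and 2 lower of 16 with TCDF 10 nM, and 3 and 2 with PeCDF 2 nM. The selenium list had 1 higher of 14 at both doses, and 2 lower with PeCDF 2 nM. The secretory pathway kinases held 0 calls of 9.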

How the data were processed

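The scanner files hold mean spot signals and local backgrounds as intensity values, read with Agilent Feature Extraction, for which the file headers name another version than the 9.1 of the submitters' processing notes. The authors deposited a log10 ratio per array, which in the deposited series table runs as test RNA over DMSO RNA (largest difference from the scanner files, once turned, 4.995e-06). From the deposited intensities, log2 ratios were computed in limma 3.58.1 under R 4.3.3 (files read with data.table, release 1.17.8): normexp background correction with an offset of 50, loess within each array with 2256 control spots at weight 0, marked spots dropped (1067, 0.0921%). A probe was kept when well above background in the treated channel on all 4 arrays of a group, or in the DMSO channel on at least 14 of 28 (37824 of 41012 probes); the brightest probe stood for a gene. The 2 orientations of a rat were averaged (856 of these values were missing, none of the 6 genes'), and the 14 ratios per gene entered a fit of 7 group means with Benjamini-Hochberg adjustment, with steps tested on simulated data.

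The labels give the same 2 rats in every group, so A and B pair the ratios; the deviations of one rat from the group means correlated between groups with a median r of 0.12 (-0.39 to 0.56 over 21 pairs). The members, lists and tests were chosen with earlier results of these data known. Named beside the members are the 3 genes most correlated with each and up to 4 genes per list with the smallest p over the 3 upper doses. Motifs were searched in RefSeq windows of GRCr8; the genome build behind the array is not given in the sources used here. All per-sample columns of the series table were mapped.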

Additional observations from a re-analysis of the deposited data

Results flagged for a closer look

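The step between TCDD doses was picked out because the test of the difference itself passed its threshold. The log2 differences of TCDD 1 nM minus TCDD 0.01 nM were 0.97 for Lect2, 0.85 for Defb1, 1.34 for Selenbp1, 0.74 for Pkdcc, 1.00 for Ddit4l and 1.34 for Ceacam4 (n = 2 rats per dose, limma adjusted p between 7.99e-05 and 0.028). Groups of 2 rats are too small for a search for outlying samples.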

How the results depend on the processing

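With 2 rats per group, all values rest on 14 ratios, and dim probes depend most on the background step. In every alternative that gave a test, TCDD 1 nM called 6 of 6 genes higher against DMSO. Single arrays with a dye term, and single arrays with the reading day as a block, each called 2 of 6 genes with TCDD 0.01 nM. Each called 3 of 6 with TCDF 0.1 nM, against 0 in both comparisons as reported. The share of all genes called by these fits is not given here, so the counts cannot be set beside it. Both fits treat the orientations of a rat as correlated arrays, with an estimated correlation of 0.39 and 0.41. Since reading day went with dye orientation, the 2 fits are not separate checks. The TCDD dose step lost Pkdcc under 5 alternatives, given beside its result. With the rat as a replicate block no count of called genes changed; the paired fit gave Pkdcc 0.74 for that step (limma adjusted p = 0.0219). With the rat within a reading session as a replicate block, counts of called genes changed only in comparisons that chose the genes. A count there is no test of these genes, so none is given. Leaving out one rat everywhere left no residual degrees of freedom and so values only: TCDD 1 nM ratios ran from 0.94 to 1.64 over the 6 genes. Leaving out 1 rat of 1 group, and leaving out the brighter array, were chosen after seeing the data. The step between TCDF doses for Pkdcc, given as a description, lay between -0.11 and 0.30 over the alternatives. Counts of called genes in the related lists moved clearly in 206 combinations of list, comparison and setting and stayed near the reported count in 1684.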
